A study of Mus musculus with 6 samples.

Results

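The autosomal binding of EWS-FLI1 was compared between ES48 and ES49, cell lines of mouse Ewing sarcoma induced by EWS-FLI1 on a Balb/c background. The peaks came from chromatin immunoprecipitation with an antibody against FLAG, and all peaks on chromosomes 1 to 19 of the mm9 genome build were taken. There were 745 such peaks, of 1295 EWS-FLI1 peaks in the series: 410 of the 614 ES48 peaks (66.8%) and 335 of the 681 ES49 peaks (49.2%). Both lines were grown untreated in the same serum-supplemented medium, and each line gave 1 EWS-FLI1 library. Lists of H3K27ac peaks from both lines and of H3K27me3 peaks from ES49 served as other readouts. The labels do not name the promoter or vector that expressed the fusion, nor say whether a line is 1 clone, and the cell type was not checked against marker genes here. With 1 library a side there is no test between the lines, and each 95% interval below covers counting error within a list only. Peaks of 1 locus are not separate observations, which makes these intervals narrower than they should be.

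EWS-FLI1 joins the activating part of EWSR1 to the DNA-binding ETS domain of FLI1. The fusion is known to bind single ETS motifs and runs of GGAA repeats, and at such repeats it can open chromatin and form enhancers. H3K27ac marks active promoters and enhancers, and H3K27me3 is laid down by Polycomb complexes at silenced genes. An mm9 sequence and annotation were not used here, so peaks are named by position, with no gene and no sequence.

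Each peak was put in 1 of 3 classes by its gap to the nearest peak of the other line. Overlapping peaks share at least 1 bp with a peak of the other line, near peaks lie within 10 kb of one without overlap, and distant peaks have none within 10 kb. In ES48 70 of 410 peaks (17.1%, 95% Clopper-Pearson interval 13.6 to 21.1) were overlapping, 10 (2.44%, 1.18 to 4.44) were near and 330 (80.5%, 76.3 to 84.2) were distant. In ES49 62 of 335 peaks (18.5%, 14.5 to 23.1) were overlapping, 88 (26.3%, 21.6 to 31.3) were near and 185 (55.2%, 49.7 to 60.6) were distant. The overlapping shares of the lines were close, but overlap is mutual, so in lists of these lengths this says little about the lines. Near peaks were far more frequent in ES49. At the 1 bp edge, the smallest overlap was 15 bp, between chr4:76597848-76598017 in ES48 and chr4:76597474-76597862 in ES49. The closest peak without overlap was 29 bp away, at chr1:76197927-76198368 in ES49. At the 10 kb edge, chr1:87521111-87521850 in ES49 lay 9686 bp from an ES48 peak and its neighbour chr1:87521932-87522197 lay 10507 bp away. No ES48 gap fell between 3117 and 12554 bp. When both lists were limited to their best-scoring 50%, the overlapping share was 26.3% in ES48 and 28.1% in ES49.

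The near peaks of ES49 surrounded places where ES48 had few peaks. When peaks of either line within 10 kb of each other were joined into loci, 528 loci resulted, of which 48 held both lines, 321 ES48 alone and 159 ES49 alone. Loci with both lines made up 13.0% (9.75 to 16.9) of the ES48 loci and 23.2% (17.6 to 29.5) of the ES49 loci. In those 48 loci ES48 had 80 peaks and ES49 had 154. ES49 had more peaks than ES48 in 21 of them, as many in 23 and fewer in 4. Loci of a single line were mostly single peaks, 314 of 321 in ES48 and 145 of 159 in ES49. Near peaks made up 13.6% of the ES49 list without the dense loci described below.

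Spacing within a list showed the same contrast. In ES48 the median gap to the next peak of the list was 509785 bp (exact binomial interval of the median 377619 to 615464), and in ES49 it was 27553 bp (1688 to 412756). In ES49 163 peaks (48.7%, 43.2 to 54.1) had another peak of the list within 10 kb, against 61 (14.9%, 11.6 to 18.7) in ES48. The ES49 gaps fell into separate ranges: 135 peaks had a neighbour within 1 kb and 115 had their nearest at 1 to 10 Mb, but only 19 had it at 100 kb to 1 Mb. In ES48 that middle range was the fullest, with 148 peaks (36.1%). By class, a neighbour in the same list within 10 kb was found for 38 of 70 overlapping and 16 of 330 distant peaks in ES48. The ES49 counts were 38 of 62 overlapping, 85 of 88 near and 40 of 185 distant peaks. When peaks less than 1 kb apart were first joined, the share with a neighbour within 10 kb was 23.4% in ES49 and 6.23% in ES48, and the ES49 median gap was 1806644 bp.

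**Figure D1:**
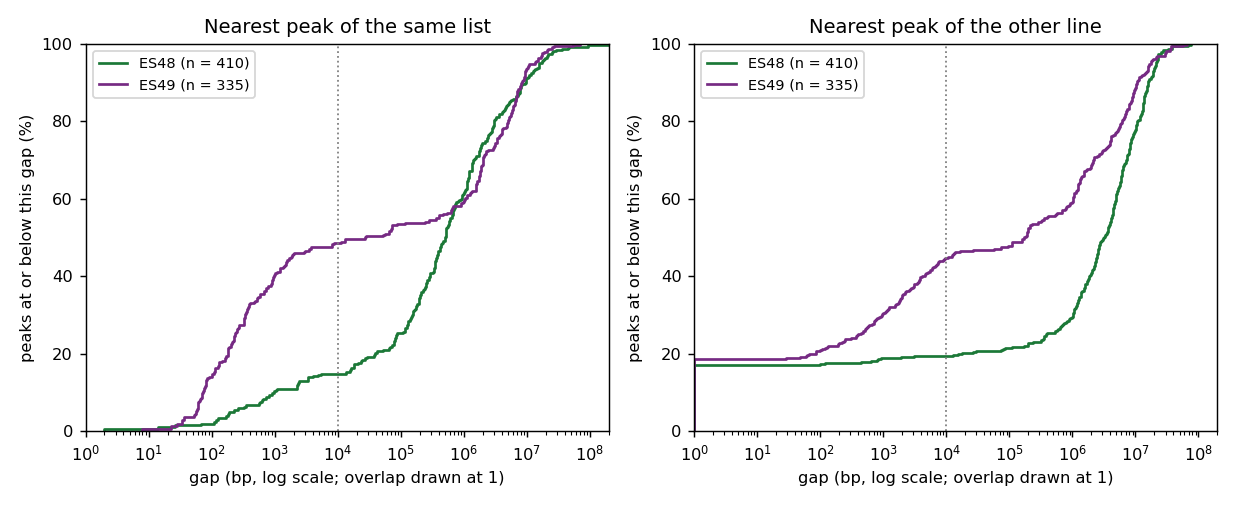
Cumulative percentage of autosomal EWS-FLI1 peaks (y axis) against the gap to the nearest peak of the same list (left) or of the other line (right), in bp on a log scale, with a dotted line at 10 kb; green is ES48 (410 peaks) and purple is ES49 (335 peaks). The ES49 curves climb to 48.7% and level off before 10 kb in the left panel, whereas the ES48 curve rises mostly beyond 10 kb.

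Part of the crowding of ES49 lay in 6 dense loci, which are runs of at least 10 autosomal EWS-FLI1 peaks of either line with neighbours less than 500 kb apart. Together they span 1669 kb and held 28 ES48 peaks (6.83%, 4.59 to 9.72) and 99 ES49 peaks (29.6%, 24.7 to 34.8). The loci were picked by these same peaks, so the shares, and changes on leaving the loci out, follow in part from that choice. The fullest was chr3:25417087-25456256, with 7 ES48 and 27 ES49 peaks in 39.2 kb. There 2 of the 7 ES48 peaks overlapped and 5 were near, and 1 H3K27ac peak per line and 0 H3K27me3 peaks fell in the run. The run at chr2:27351241-27358306, of 7.07 kb, was the most evenly shared, with 9 ES48 peaks, all overlapping, and 11 ES49 peaks. On chromosome 1, chr1:84516379-85339075 held 5 ES48 and 22 ES49 peaks, and chr1:87378026-87761282 held 6 and 20. The runs on chromosome 8 were almost wholly of ES49, with 1 ES48 and 9 ES49 peaks at chr8:19720480-19950773 and 0 and 10 at chr8:71942562-72129497. Without the 6 loci the order of the median gaps turned, to 1725506 bp in ES49 and 572232.5 bp in ES48. In contrast, 31.4% of the ES49 and 9.42% of the ES48 peaks still had a neighbour within 10 kb. Among the smaller loci with both lines, chr5:105354541-105357645, chr14:45289860-45293741 and chr18:7320012-7323204 each held 2 ES48 and 5 ES49 peaks.

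Overlapping peaks stood high in both lists. A place counts as overlapping only if it was called in both libraries, so a weak place missed in 1 library is classed as distant. How much of the contrast in rank comes from this rule was not tested. Scores were compared as percentiles within a list, where 100 is the top, because the scale of the score is not stated. In ES48 the median percentile was 89.3 (85.6 to 92.8) for overlapping, 65.6 (44.8 to 87.4) for near and 42.0 (37.3 to 47.2) for distant peaks. In ES49 it was 83.3 (75.7 to 89.4), 53.4 (43.4 to 60.7) and 39.9 (33.9 to 45.2). Of the 40 ES48 peaks in the top 10%, 32 were overlapping, 1 was near and 7 were distant. Of the 33 such ES49 peaks, 22 were overlapping, 8 were near and 3 were distant. The lower end of each list was mostly distant peaks, with 194 of 205 in the lower part of ES48 (ranks below the median) and 118 of 168 in ES49. Most distant ES48 peaks scored close to the lowest score of the list, which was 50.08 in each line. Scores below 60 were found for 232 of 330 distant ES48 peaks (70.3%), against 59.8% of the whole ES48 list. In ES49 they were found for 53 of 185 distant peaks (28.6%), against 22.4% of the whole list.

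**Figure D2:**
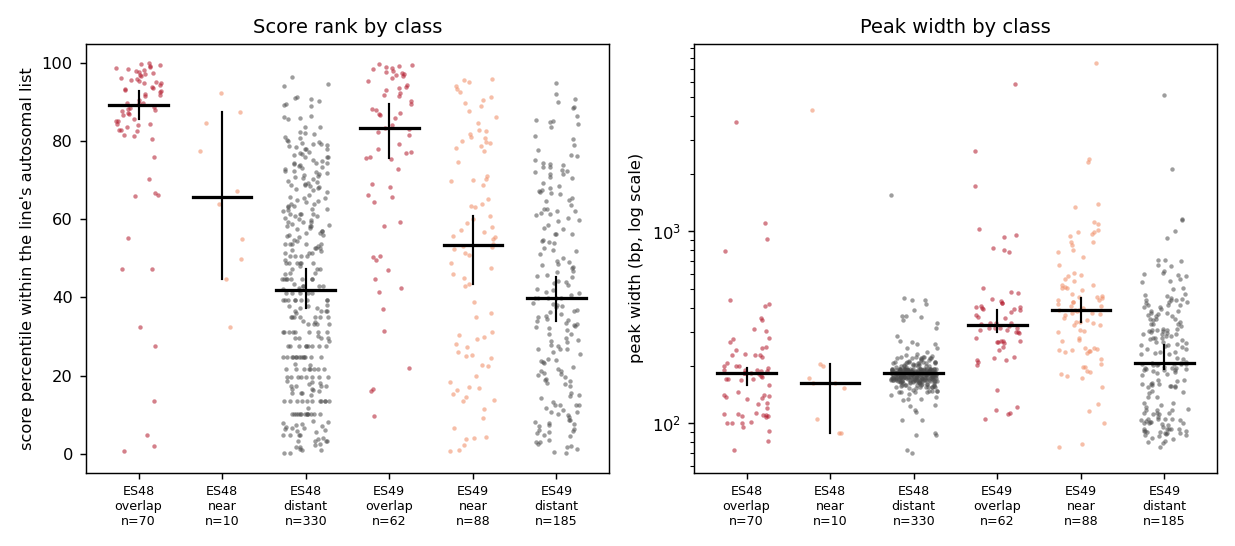
Score percentile within the line's autosomal list (left) and peak width in bp on a log scale (right) for each EWS-FLI1 peak, by line and class; points are peaks, horizontal bars medians and vertical bars exact binomial intervals of the median. Overlapping peaks have the highest median percentile in both lines (89.3 and 83.3), and the 330 distant ES48 peaks gather at a width near 182 bp.

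By median, ES49 peaks were wider than ES48 peaks in each class. In ES48 the median width was 182.5 bp for overlapping (159 to 194), 162.5 bp for near (89 to 203) and 182 bp for distant peaks (180 to 184). In ES49 it was 326.5 bp (300 to 389), 389.5 bp (339 to 452) and 207 bp (191 to 257). The distant ES48 peaks were of nearly uniform width, with quartiles of 170 and 190 bp and 251 of 330 (76.1%) between 150 and 200 bp. Only 27 of 185 distant ES49 peaks (14.6%) fell in that band, and their quartiles were 118 and 351 bp. Peaks over 1 kb numbered 4 in ES48 and 17 in ES49. The widest were chr11:3030644-3038140 in ES49 (7497 bp) and chr11:3041257-3045562 in ES48 (4306 bp), which lay 3117 bp apart and were classed as near.

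Within overlapping pairs the ES48 peak sat inside a wider ES49 peak. The 70 ES48 and 62 ES49 peaks formed 70 pairs. Each ES48 peak met 1 ES49 peak, while 56 ES49 peaks met 1 ES48 peak, 5 met 2 and 1 met 4. The ES48 peak was narrower in 69 of 70 pairs, with medians of 182.5 and 343.5 bp, and in 57 pairs the shorter peak lay wholly within the longer one. The centres were a median of 45.5 bp apart (quartiles 17.1 and 96). Ranks of the partners went together only in part, with Spearman's rho = 0.43 across the 70 pairs, some of which share an ES49 peak. In 17 pairs both partners were in the top 10% of their list, and in 3 pairs both were below the median.

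The pair ranked highest over both lists was on chromosome 17, chr17:36621512-36621929 in ES48 (rank 3) and chr17:36621598-36622023 in ES49 (rank 1), with 332 bp in common. Their scores were 1365.82 and 1955.72. The H3K27ac peaks around this pair were 596 bp wide in ES48 and 446 bp in ES49, and the H3K27me3 peak was 388 bp wide. The next place, chr17:39979913-39985792, was 1 peak of 5880 bp in ES49 (rank 4) and 2 peaks in ES48, chr17:39979938-39983636 (rank 1) and chr17:39984671-39985778 (rank 2). At chr1:87487508-87490135, rank 2 in ES49, 3 ES48 peaks of the first 10 pairs lay inside, at ranks 5, 6 and 14. The other pairs of the first 10 were on chromosome 2 (chr2:27355544-27355773 and chr2:27353360-27353585 in ES48), chromosome 9 (chr9:13422531-13422875) and chromosome 13 (chr13:4560475-4560827). The other peaks among the 5 highest-scoring overlapping ones of a line were chr3:5860600-5860779 in ES48 (rank 4) and chr2:27356897-27357719 in ES49 (rank 5). They ranked lower in the other line. The ES49 partner of the chromosome 3 peak was at rank 303 (percentile 9.70). The ES48 partners of the chromosome 2 peak were at ranks 42 and 50. Of the 10 pairs 9 overlapped H3K27ac of both lines and H3K27me3 of ES49 at the same place. The chromosome 13 pair was the exception, since its ES49 peak did not overlap ES49 H3K27ac. Antibodies against opposite marks and against FLAG thus gave peaks at the same positions there, and the part of this in the high ranks was not tested.

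Among near peaks the highest in ES49 were chr5:105357310-105357645 (rank 14), chr18:7323079-7323204 (rank 15) and chr2:27356281-27356656 (rank 17), each in 1 of the loci named above, followed by chr3:25419310-25420705 (rank 20) and chr14:45293501-45293741 (rank 23). In ES48 they were chr11:3041257-3045562 (rank 32), chr6:29697931-29698019 (rank 52), chr10:80641827-80642029 (rank 63), chr3:25430821-25430983 (rank 93) and chr5:33076620-33076724 (rank 135). The chromosome 10 peak was the 1 near ES48 peak that met H3K27ac, in both lines, and it also met H3K27me3. Among distant peaks the highest in ES48 were chr2:181665415-181665529 (rank 15), chr11:114415278-114415714 (rank 23), chr3:127736803-127737165 (rank 25), chr9:69724506-69724791 (rank 36) and chr9:35112792-35113183 (rank 37). The highest had a score of 190.10 and lay 22.9 Mb from the nearest ES49 peak. Of these 5, those at ranks 23, 25 and 36 lay in ES48 H3K27ac and that at rank 37 lay in ES49 H3K27ac alone. In ES49 they were chr4:49414458-49414556 (rank 18), chr1:85082856-85083866 (rank 27), chr10:54608308-54608419 (rank 31), chr4:96050558-96050648 (rank 34) and chr4:154247180-154247650 (rank 38). The highest had a score of 347.70 and lay 4.42 Mb from the nearest ES48 peak. Only the last of these ES49 peaks lay in H3K27ac, and it did so in both lines.

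The lines differed in how distant peaks were spread over chromosomes. In ES48 the autosomes with most EWS-FLI1 peaks were chromosome 5 with 91 (22.2%, 18.3 to 26.5), chromosome 2 with 56, and chromosomes 1 and 3 with 42 each. Chromosome 5 takes up 6.20% of the autosomal span covered by the deposited lists, and its share of the autosomal H3K27ac peaks was 8.20% in ES48 and 8.04% in ES49. In ES49 chromosome 1 came first with 57 peaks (17%, 13.1 to 21.5), then chromosome 3 with 43 and chromosome 5 with 32 (9.55%, 6.63 to 13.2). The dense loci held 22 and 20 of those on chromosome 1 and 27 of those on chromosome 3. The 7 autosomes with most distant ES48 peaks, chromosomes 5, 2, 3, 11, 1, 17 and 18, held 265 of the 330 (80.3%). Each held more of the class than of the span, from 8.79% against 8.03% on chromosome 1 to 25.2% against 6.20% on chromosome 5. Chromosomes 12 and 13 held 1 and 0. The first 7 autosomes of ES49 by distant peaks, in part other ones, held 62.7% of that class. Both sets of 7 were picked by these peaks, so their totals describe the choice. Overlapping peaks followed neither order: chromosomes 1 and 2 had 13 each in ES48, chromosome 5 had 7 and chromosome 11 had 0. Dense loci weigh on these counts, with 9 of the 13 on chromosome 2 in its 7.07 kb run. On chromosome 1 each dense locus held 5 of the 13.

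**Figure D3:**
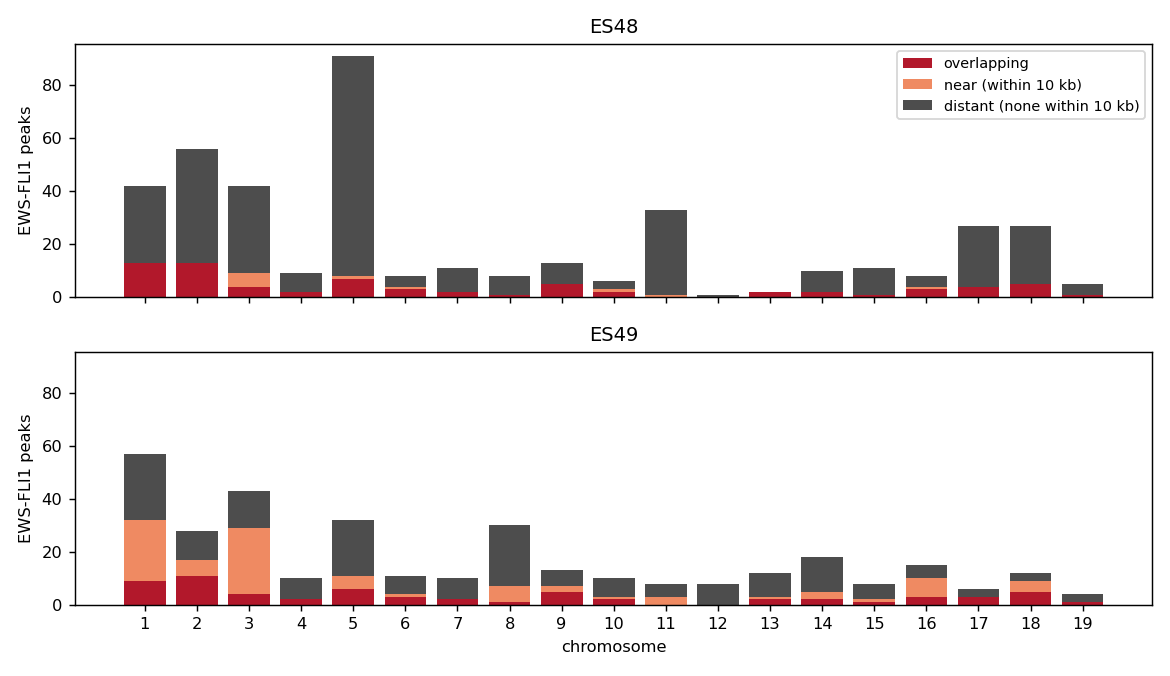
Number of autosomal EWS-FLI1 peaks per chromosome in ES48 (top) and ES49 (bottom), with bars stacked by class. Chromosome 5 stands above the other autosomes in ES48 with 91 peaks, 83 of them distant, and had 32 in ES49.

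The chromosomes were also divided into 258 windows of 10 Mb, a width chosen after the values were seen. Of these, 140 held no distant ES48 peak, and 30 held at least 4 and together 206 of the 330. The 30 windows were picked by these peaks, so that count only describes the choice. They are 11.6% of the windows and held 26 of 185 distant ES49 peaks (14.1%), 10 of 70 overlapping ES48 peaks (14.3%), 20.6% of the ES48 H3K27ac peaks and 21.4% of those of ES49. The ratio of ES48 to ES49 H3K27ac peaks was similar in these windows (median 0.98) and in the other 228 (median 0.95). The share of ES49 H3K27me3 peaks in them was 28%.

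The stretches below were picked for their distant ES48 peaks, so those counts say where the peaks lay and support no contrast with other peaks. On chromosome 2, 41 of 43 distant ES48 peaks started between 120 and 190 Mb, a stretch with 43.9% of that chromosome's ES48 H3K27ac peaks. On chromosome 11, 27 of 32 started between 90 and 120 Mb, with 44.0% of the ES48 H3K27ac peaks. On chromosome 17 the count was 20 of 23 between 10 and 40 Mb (52.5% of the ES48 H3K27ac peaks), and on chromosome 3 it was 28 of 33 between 80 and 140 Mb (66.3%). Distant ES49 peaks in these stretches numbered 4 of 11, 1 of 5, 2 of 3 and 4 of 14. Chromosome 5 differed from these, since all 16 of its windows held a distant ES48 peak. The median score in the 4 stretches was 55.7 to 58.2, and over all distant ES48 peaks it was 56.5. In ES49 the fullest windows were chromosome 1 from 80 to 90 Mb, with 15 of 25 distant peaks, and chromosome 8 from 70 to 80 Mb, with 11 of 23, and both contain dense loci.

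Histone marks were measured in other libraries and were not used to class the peaks. Overlapping EWS-FLI1 peaks met every mark most often. Whether signal common to all libraries adds to both the overlap and the marks was not tested, and the ES49 input was not analysed. In ES48 the overlap with H3K27ac of the same line was 40 of 70 (57.1%, 44.7 to 68.9) for overlapping, 1 of 10 for near and 26 of 330 (7.88%, 5.21 to 11.3) for distant peaks, where 16.3% of the whole list did. In ES49 it was 22 of 62 (35.5%, 23.7 to 48.7) for overlapping, 8 of 88 (9.09%, 4.01 to 17.1) for near and 48 of 185 (25.9%, 19.8 to 32.9) for distant peaks, where 23.3% of the whole list did. For distant peaks the share was higher in the ES49 library than in the ES48 library, a difference that could not be tested between the lines. In the best-scoring 50% it was 13.1% (8.08 to 19.7) in ES48 and 23.3% (14.2 to 34.6) in ES49.

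Acetylation at distant peaks was mostly common to the lines, and this was not particular to that class. Among the 67 ES48 EWS-FLI1 peaks of any class with ES48 acetylation, 44 were acetylated in ES49 too. For ES49 peaks with ES49 acetylation, 77 of 78 were acetylated in ES48 too. Of the overlapping ES48 peaks, 26 lay in H3K27ac of both lines, 14 in that of ES48 alone and 2 in that of ES49 alone. For overlapping ES49 peaks these counts were 21, 13 and 1. Of the 48 distant ES49 peaks in ES49 H3K27ac, 48 also lay in ES48 H3K27ac, and 3 more lay in ES48 H3K27ac alone. Of the 26 distant ES48 peaks in ES48 H3K27ac, 17 also lay in ES49 H3K27ac, 9 did not, and 4 more lay in ES49 H3K27ac alone. The overlap with H3K27ac of the other line was 12.2% for the whole ES48 list and 28.1% for the whole ES49 list. By class it was 40% for overlapping and 6.36% for distant ES48 peaks, and 54.8% and 27.6% in ES49.

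H3K27me3 of ES49 fell mainly on overlapping peaks. In ES48 it met 29 of 70 overlapping peaks (41.4%, 29.8 to 53.8), 1 of 10 near and 14 of 330 distant peaks (4.24%, 2.34 to 7.02), against 10.7% of the whole list. In ES49 it met 22 of 62 (35.5%, 23.7 to 48.7), 3 of 88 (3.41%, 0.709 to 9.64) and 4 of 185 (2.16%, 0.592 to 5.44), against 8.66% of the whole list. Of overlapping peaks with H3K27me3, 24 of 29 in ES48 and 18 of 22 in ES49 also met H3K27ac of at least 1 line. Those that met H3K27ac of both lines numbered 19 and 14. The others met H3K27ac of 1 line alone, so the opposite marks need not be of the same line there. Of distant peaks with H3K27me3, 0 of 14 in ES48 and 0 of 4 in ES49 met H3K27ac of either line. Peaks with neither mark in any list were 23 of 70 overlapping and 286 of 330 distant (86.7%) in ES48, and 23 of 62 and 130 of 185 (70.3%) in ES49. Of the overlapping peaks, 7 in each line lay in H3K27ac of both lines without H3K27me3. Without the dense loci H3K27me3 met 29.2% of the overlapping and 4.26% of the distant ES48 peaks.

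**Figure D4:**
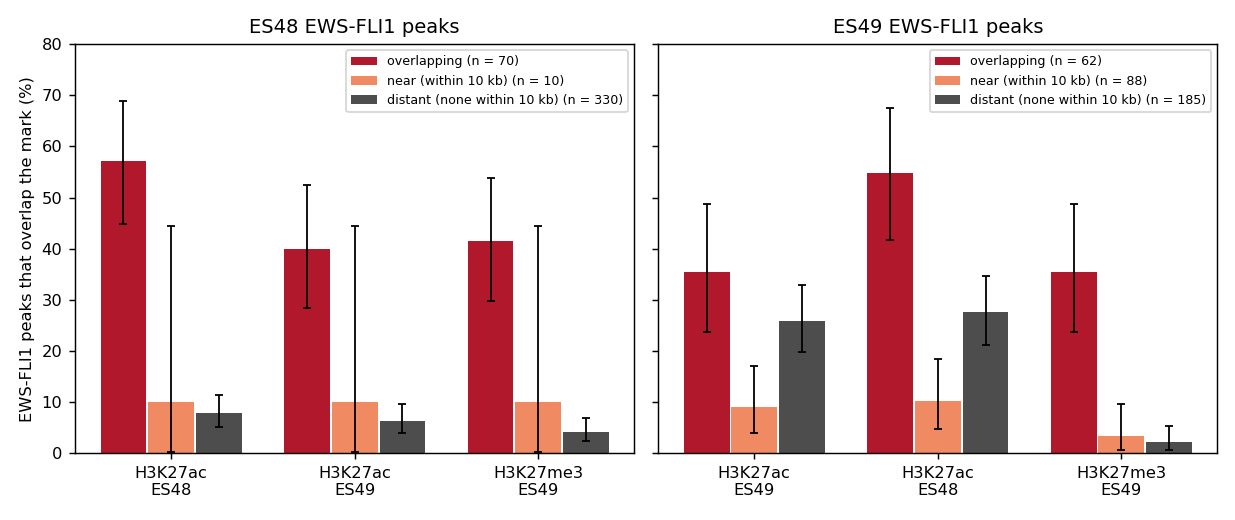
Percentage of EWS-FLI1 peaks of ES48 (left) and ES49 (right) that overlap H3K27ac of the same line, H3K27ac of the other line and H3K27me3 of ES49, by class; error bars are 95% Clopper-Pearson intervals. Overlapping peaks have the tallest bar for every mark, and distant ES49 peaks reach 25.9% for ES49 H3K27ac against 7.88% for distant ES48 peaks with ES48 H3K27ac.

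The H3K27ac peaks that EWS-FLI1 peaks lay in differed by class, a comparison added after the values were seen. Overlapping EWS-FLI1 peaks lay in narrow H3K27ac peaks, with a median width of 488 bp (379 to 754, 35 H3K27ac peaks) in ES48 and 566 bp (396 to 2550, 21) in ES49. The medians of all autosomal H3K27ac peaks were 1485 and 836 bp. Distant EWS-FLI1 peaks lay in wide ones, with medians of 5000 bp (3004 to 6734, 24) in ES48 and 2309 bp (1695 to 3499, 45) in ES49. More H3K27ac peaks than not were wider than their list's median at distant EWS-FLI1 peaks, 21 of 24 in ES48 and 38 of 45 in ES49, against 9 of 35 and 7 of 21 at overlapping ones. Many H3K27ac peaks share a score of 3100, 19.1% of the autosomal list in ES48 and 5.81% in ES49, so their ranks are tied. In ES48 16 of the 24 H3K27ac peaks at distant EWS-FLI1 peaks had that score, against 5 of 35 at overlapping ones. The ES49 counts were 9 of 45 at distant and 2 of 21 at overlapping peaks. Wider peaks cover more of the genome, which was not allowed for here. In ES49 the intervals of the 2 widths meet.

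**Figure D5:**
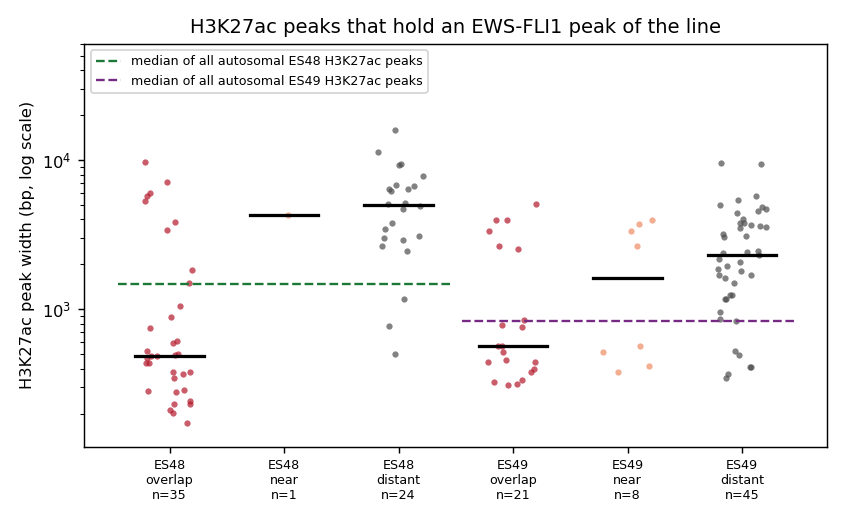
Width in bp, on a log scale, of each H3K27ac peak that holds an EWS-FLI1 peak of the same line, by line and class of the EWS-FLI1 peak; points are H3K27ac peaks, black bars medians and dashed lines the median of all autosomal H3K27ac peaks of the line. The medians at distant EWS-FLI1 peaks (5000 and 2309 bp) are above the dashed lines, and those at overlapping peaks (488 and 566 bp) are below.

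The distant peaks with H3K27ac that scored highest, picked after their marks were seen, show this. In ES48 chr11:114415278-114415714 lay in an H3K27ac peak of 4939 bp, chr3:127736803-127737165 in one of 9243 bp, chr9:69724506-69724791 in one of 3434 bp, chr3:127377954-127378316 in one of 3004 bp and chr5:126966677-126966885 in one of 6397 bp. The place at chr3:127736803-127737165 was acetylated in ES48 alone, with the nearest ES49 H3K27ac peak 137351 bp away, and the other 4 were acetylated in both lines. In ES49 chr4:154247180-154247650, chr3:61212912-61214059, chr3:80014366-80015290 and chr5:101379776-101380485 lay in H3K27ac peaks of 4442, 3499, 2309 and 4865 bp. The fifth, chr12:13653353-13653819, lay in one of 522 bp. All 5 were acetylated in both lines. Distant ES49 peaks with H3K27ac were wider than those without, at medians of 380.5 and 169 bp, and their median percentiles were 33.4 and 39.9. In ES48 the widths were 194.5 and 181 bp and the percentiles 57.9 and 41.1.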

How the data were processed

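The 5 deposited peak lists, 1 library each, were read for EWS-FLI1 and H3K27ac (both lines) and H3K27me3 (ES49). The submitters' processing notes name the mm9 build, Bowtie 1.1.1 and SAMtools 1.2. Peak names point to a MACS program, per the files; not given in the sources used here are its version, settings and control. The deposited score of a peak comes from that caller on an unstated scale, so scores were used as percentiles within a list, ties at their mean rank. Depth is unknown, as no read counts are given. Positions are 1-based. Gaps run between facing ends on the same chromosome. Shares carry Clopper-Pearson intervals, and medians exact binomial intervals. No test was run. The classing was tested on 400 simulated peaks and gave 400 the right class. Members, lists and alternatives were chosen with earlier results of these data known. Regions named are the 5 highest-scoring peaks per class and line, the 10 pairs with the best mean rank, the 3 autosomes with most peaks (4 in ES48, where 2 tie), runs of at least 10 peaks, and peaks at the class edges. The gene table at hand is of another build, so the planned naming of genes was not run. The ES49 input was not analysed here. Values were computed in Python 3.11.15 (scipy 1.17.1, pandas 2.3.3, numpy 2.4.6, matplotlib 3.10.9).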

Additional observations from a re-analysis of the deposited data

Results flagged for a closer look

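In 3 contrasts of classes the lines went opposite ways, each from 1 library a line, and the differences between the lines were not tested. Near minus distant peaks, the median width differed by -19.5 bp in ES48 (162.5 against 182 bp) and by 182.5 bp in ES49 (389.5 against 207 bp). The ES48 order turned, to that of ES49, in the best-scoring 50% (180.5 against 177 bp) and with peaks less than 1 kb apart joined (198 against 182 bp). Overlapping minus near peaks, the median width differed by 20 bp in ES48 and by -63 bp in ES49. Without the dense loci the ES49 order turned, to 307 against 270 bp, with 182.5 against 105 bp in ES48, so the lines then went the same way. With peaks joined the ES48 order turned, to 183 against 198 bp, with 459.5 against 926.5 bp in ES49. Near minus distant peaks, the share in H3K27ac of the same line differed by 2.12 percentage points in ES48 (10.0% against 7.88%) and by -16.9 in ES49 (9.09% against 25.9%). With 1 kb as the limit of near, both ES49 shares were 20.5% and the contrast was gone, and without the dense loci they were 21.9% against 29.7%. The near class of ES48 held only 10 peaks in each contrast as reported, and fewer in some alternatives. It held 7 peaks with the 1 kb limit. In the best-scoring 50% it was 2.93% of 205 peaks, and without the dense loci 1.31% of 382 peaks.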

How the results depend on the processing

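Of 286 values under 6 alternatives, 245 stayed within the counting interval of the reported value and 41 moved outside it. An overlap of 50% of the shorter peak and leaving out chromosome 5 moved none. With 1 kb as the limit of near, ES49 had 11.6% near and 69.9% distant peaks. In the best-scoring 50%, overlapping shares were 26.3% in ES48 and 28.1% in ES49, distant shares 70.7% and 43.7%, and loci with both lines 20.5% and 35.6%. In ES48 that setting gave a median percentile of 83.4 for overlapping peaks, a distant width of 177 bp, 13.1% of distant peaks in H3K27ac, a median gap of 1094636 bp and 20.5% of peaks with a neighbour within 10 kb. Without dense loci, ES48 had 12.6% overlapping and 86.1% distant peaks, 29.2% of overlapping peaks in H3K27me3 and 9.42% with a neighbour within 10 kb. ES49 then had 13.6% near and 66.9% distant peaks, a median gap of 1725506 bp, 31.4% with a neighbour within 10 kb and 13.6% on chromosome 5. With peaks less than 1 kb apart joined, 6.23% of ES48 and 23.4% of ES49 peaks had a neighbour within 10 kb, and ES49 had an overlapping width of 459.5 bp, 11.3% near peaks, 68.5% distant peaks and a median gap of 1806644 bp. By construction the 1 kb limit turns near peaks into distant ones, and 4 settings leave fewer peaks; other causes were not tested. In ES48 the median width of overlapping and distant peaks was 182.5 against 182 bp, and without chromosome 5 the order turned, to 180 against 183 bp. Under all 6 alternatives, which reuse the same peaks, overlapping peaks kept a higher median percentile than distant peaks in both lines. Their shares in H3K27ac of the same line and in H3K27me3 also stayed higher. For H3K27ac in ES49 the difference was small, at 35.5% (23.7 to 48.7) against 25.9% (19.8 to 32.9) as reported, with intervals that meet. Without the dense loci these ES49 shares were 34.8% and 29.7%. No paired analysis was possible because each group has 1 sample. Depth is unknown and limits every count.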
